A study of Homo sapiens with 8 samples.

Results

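The cytochrome P450 genes outside family 1 were taken as every protein-coding gene whose symbol is CYP followed by a family number from 2 to 51, found on the array through the transcript accession of its probes. The annotation used for names (RefSeq, GRCh38.p14) holds 52 such genes, and 51 of the 19056 genes measured met the rule. CYP2A6 was not analysed here, and the 3 genes of family 1 were left out by the rule.

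Cytochrome P450 enzymes are heme proteins of the endoplasmic reticulum and the mitochondria that insert an oxygen atom into their substrates, using electrons handed on from NADPH by partner proteins. Many enzymes of the CYP2 and CYP3 families clear drugs and activate carcinogens, chiefly in the liver, and the CYP4 family hydroxylates fatty acids and eicosanoids. Others act on the body's own signals: they make steroid hormones and bile acids, activate and inactivate vitamin D, and break down retinoic acid. In the lung, P450 enzymes of the airway lining are known for activating inhaled carcinogens.

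Gene expression was measured in A549 cells, an established human lung adenocarcinoma line, on 8 single-colour Agilent arrays. In the EEDS series cells received vehicle or 1.25, 5 or 20 μg/mL of EEDS, the ethanol extract of Descurainia sophia seeds, and in the helveticoside series vehicle or 3.75, 15 or 60 nM of helveticoside, a cardiac glycoside found in these seeds. Each of the 8 groups had 1 array, which held RNA pooled from 3 cultures, so a single dose has no replicate error and no p-value. Each agent has arrays and a vehicle of its own, so a difference between the agents cannot be told apart from one between the series. The sample labels give 48 h of exposure and the study's methods 24 h.

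All values are log2 of the quantile-normalized signal, which sets the arrays but not different probes on a common scale. The scanner software called 63.3 to 64.9% of probes well above background on the EEDS arrays and 54.5 to 59.5% on the helveticoside arrays. The dimmest probe with that call lay at log2 4.55 to 4.81 on the EEDS arrays and 5.23 to 5.96 on the helveticoside arrays, so dim probes passed more easily in the EEDS series. The 7 epithelial markers examined (EPCAM, KRT7, KRT8, KRT18, KRT19, CDH1 and CD24) were well above background on all 8 arrays. Of 9 markers of other cell types, 5 (ALB, CD3E, PECAM1, VWF and COL1A2) were so on none and 4 (PTPRC, CD14, CDH5 and COL1A1) on all 8. By the mean dose slope fitted below, 5 of the 7 epithelial markers fell (KRT8, KRT18, KRT19, CDH1 and CD24) and 1 rose (KRT7), and 1 of the 9 other markers fell (CD14, a monocyte marker), with slopes of -0.99 for CDH1 and -0.78 for CD14 in log2 per step. The part of these shifts in the P450 values was not tested. Where a treated culture changes its makeup or its RNA content, fewer cells of a type and less RNA per cell cannot be told apart.

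Of the 51 genes, 14 (27.5%) were well above background on all 8 arrays, 16 (31.4%) on some and 21 (41.2%) on none, while of all genes 60.3% were so on all 8 arrays and 22.5% on none. By the looser limit of 1.4 times the local background, 46 of the 51 counted as detected on all 8 arrays. The share of all genes by that limit is not given here, so this count does not set the P450 genes apart. The 14 genes were CYP2R1 and CYP24A1 of vitamin D metabolism, CYP27C1 of retinol metabolism, CYP51A1 of cholesterol synthesis, CYP17A1 of steroid hormone synthesis, the fatty acid and eicosanoid hydroxylases CYP4F8, CYP4F11 and CYP4F12, the enzymes of foreign compounds CYP2A13, CYP2B6 and CYP3A7, and CYP2S1, CYP2W1 and CYP20A1, which have no settled substrate. On a single array 21 to 26 of the 51 genes had the call.

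Of the 21 genes well above background on no array, the 20 reported here lay between log2 2.87 and 4.89. The 21 included 8 of the 14 enzymes of foreign compounds (among them CYP2A7, CYP2C8, CYP2C18, CYP2C19, CYP2E1, CYP2F1 and CYP3A43) and 5 of the 7 sterol and bile acid enzymes, namely CYP27A1, CYP39A1, CYP46A1, CYP7B1 and CYP7A1, the last of these the rate-limiting enzyme of bile acid synthesis. Aromatase (CYP19A1) and the adrenal enzymes CYP11B1 and CYP11B2 also had no call, as had 5 of the 14 fatty acid and eicosanoid enzymes (CYP2J2, CYP4A22, CYP4B1, CYP4F22 and CYP4Z1). No level or change is read from these genes.

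**Figure D1:**
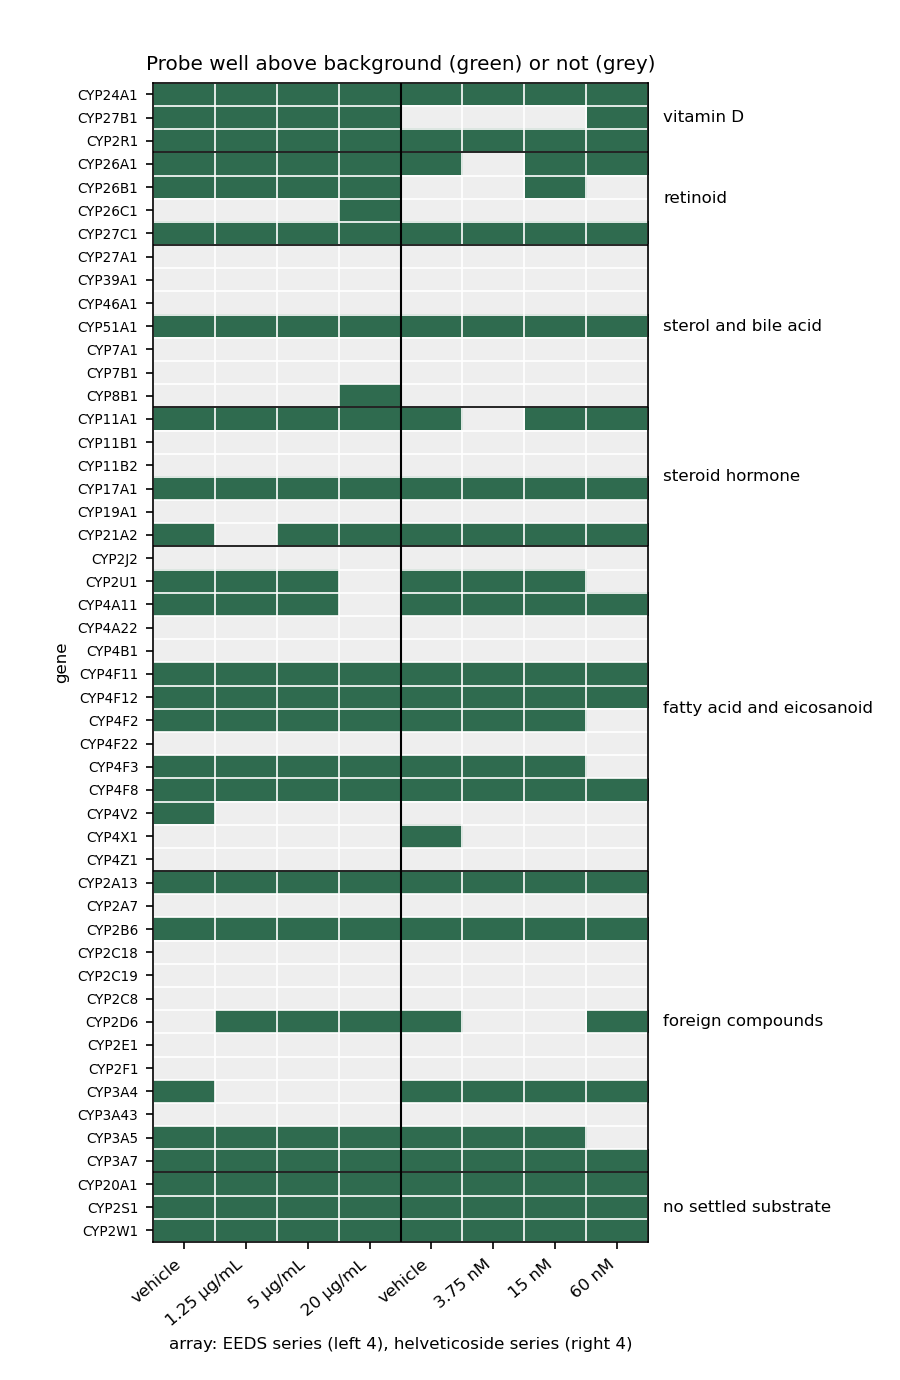
Calls of the scanner software for 50 of the 51 P450 genes (rows, grouped by what the enzymes act on) on the 8 arrays (columns, EEDS series left and helveticoside series right), green where the gene's brightest probe was well above background. The 3 vitamin D genes have green cells in both series, while most enzymes of foreign compounds are grey on every array.

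Dose trends were fitted with limma over all 8 arrays as a slope in log2 per dose step (vehicle, low, middle, top), with an intercept per series, and p-values were adjusted over the 19056 genes. With EEDS 1 P450 gene rose with dose (CYP27B1) and 3 fell (CYP2S1, CYP2U1 and CYP4V2) at an adjusted p under 0.05, where 7.26% of all genes rose and 7.85% fell. With helveticoside 0 of 51 rose and 2 fell (CYP2S1 and CYP2U1), against 5.46% and 5.79% of all genes. At an unadjusted p under 0.05 5 of the 51 rose and 7 fell in limma, which is no excess. At that p the fit without intensity trend and robust variances gave 12 of the 51 and 5713 of the 19056 genes. The mean slope of both series, which rests on all 8 arrays, rose for 2 genes (CYP26A1 and CYP27B1) where 14.5% of all genes rose. It fell for 8 genes (CYP2R1, CYP2S1, CYP2U1, CYP4F2, CYP4F11, CYP4V2, CYP17A1 and CYP24A1), 15.7% of the 51, where 15.6% of all genes fell. The share that fell thus lay near the background, and the share that rose, 3.92%, below it. With the arrays scaled to their 75th percentile, the split was 1 rising and 6 falling with EEDS, where 9.48% of all genes rose and 11.5% fell, and 1 and 10 for the mean slope, where 15.4% rose and 17.3% fell. Of the 14 P450 genes with a call on every array, 5 fell and 0 rose by the mean slope (at an unadjusted p under 0.05 as well, 0 of these rose), where 20.9% of all genes with that call fell and 20.2% rose.

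At single doses a gene was counted as changed where it was over 2-fold higher or lower than on its own vehicle array, or past a 2-fold bound where 1 of the 2 arrays was not well above background. Of 29 P450 genes that could be compared at 20 μg/mL EEDS, 5 were lower (CYP2R1, CYP2S1, CYP2U1, CYP17A1 and CYP24A1; 16.8% of all genes) and 2 higher (CYP8B1 and CYP27B1; 15.4%). At 60 nM helveticoside 5 of 26 were lower (CYP2R1, CYP2S1, CYP2U1, CYP4F2 and CYP4F3; 14.1%) and 1 was higher (CYP26A1; 11.5%). With 75th percentile scaling 1 gene was higher and 9 lower at 20 μg/mL (14.8% and 20.5% of all genes), and 0 and 6 at 60 nM (12.0% and 13.8%). With the signal as scanned, with another background correction (normexp) or in the authors' table, CYP2R1 and CYP2S1 alone were over 2-fold at 60 nM. At 5 μg/mL EEDS CYP2S1 and CYP2U1 were lower (9.0% of all genes) and CYP26A1 and CYP27B1 higher (8.04%), and at 15 nM helveticoside CYP2D6 and CYP3A4 were lower (7.83%) and 0 of 26 higher (6.13%). At the lowest doses 3 of 27 genes were higher with EEDS (CYP3A5, CYP3A7 and CYP27C1; 4.27% of all genes) and 0 lower (3.37%), and with helveticoside 0 of 25 were higher (1.86%) and 0 lower (1.67%). The median log2 difference of the 51 genes from vehicle lay between -0.07 and 0.02 at every dose, and that of all genes between -0.04 and 0.02.

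The 2 vehicle arrays show how far these genes differ with no agent. For the 23 P450 genes well above background on both, the difference between the vehicle arrays had an SD of 0.78 (log2). For all 12385 genes with that call it was 0.50. The median absolute differences lay closer together, at 0.34 and 0.28. Of the 23 genes, 3 differed by over 2-fold (CYP3A4, CYP17A1 and CYP21A2), as did 656 of the 12385. Each change below is therefore read within its own series.

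The promoters of 4 genes are shown because these genes had values over 2-fold from vehicle in the same direction in both series (CYP2R1, CYP2U1 and CYP2S1, all lower) or a mean slope that rose (CYP26A1). The mean slope of CYP27B1 rose as well, but the promoters available held none of that gene. The sequences are from RefSeq (GRCh38.p14), 250 bases before to 50 after the annotated start, on the gene's strand: CYP2R1 at chr11:14892182-14892481 (minus strand, 1 of 3 annotated starts, chosen with all of them seen), CYP2U1 at chr4:107931299-107931598 (plus), CYP2S1 at chr19:41192969-41193268 (plus) and CYP26A1 at chr10:93073643-93073942 (plus, 1 of 2 starts, likewise). Capitals mark matches on either strand to the GC box GGGCGG, the CCAAT box CCAAT, the TATA box TATAAA and hexamers bound by nuclear receptors (AGGTCA, and as other spellings GGTTCA and also AGTTCA or else GGGTCA).
CYP2R1: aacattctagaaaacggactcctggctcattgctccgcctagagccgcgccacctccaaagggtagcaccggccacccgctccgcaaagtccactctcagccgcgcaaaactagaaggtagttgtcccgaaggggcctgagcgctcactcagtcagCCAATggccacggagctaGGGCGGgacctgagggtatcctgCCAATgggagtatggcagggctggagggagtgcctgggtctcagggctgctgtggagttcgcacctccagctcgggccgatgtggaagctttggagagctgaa
CYP2U1: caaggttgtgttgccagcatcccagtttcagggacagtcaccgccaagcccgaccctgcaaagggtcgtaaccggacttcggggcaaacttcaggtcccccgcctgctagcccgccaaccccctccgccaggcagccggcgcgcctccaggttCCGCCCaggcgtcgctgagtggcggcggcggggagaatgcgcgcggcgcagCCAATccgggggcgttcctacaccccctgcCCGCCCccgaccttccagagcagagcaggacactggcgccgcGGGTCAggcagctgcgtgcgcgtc
CYP2S1: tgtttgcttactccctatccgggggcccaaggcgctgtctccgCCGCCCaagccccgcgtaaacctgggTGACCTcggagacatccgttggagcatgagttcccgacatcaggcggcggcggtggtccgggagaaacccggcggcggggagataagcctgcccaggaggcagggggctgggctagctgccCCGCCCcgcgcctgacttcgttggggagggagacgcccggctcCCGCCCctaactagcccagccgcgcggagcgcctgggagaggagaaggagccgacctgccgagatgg
CYP26A1: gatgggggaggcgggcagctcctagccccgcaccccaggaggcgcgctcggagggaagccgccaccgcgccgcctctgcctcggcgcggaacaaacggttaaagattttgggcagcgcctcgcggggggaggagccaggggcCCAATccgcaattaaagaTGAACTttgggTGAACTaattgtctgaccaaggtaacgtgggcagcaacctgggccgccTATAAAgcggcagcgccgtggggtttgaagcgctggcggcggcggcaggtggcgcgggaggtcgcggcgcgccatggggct

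The 3 promoters of genes that were lower held 1 to 3 GC boxes each and no TATA box, and their GC content was 61.3 to 70.7%. The CYP26A1 promoter held a CCAAT box, a TATA box at -31 from the start, and a pair of receptor hexamers in tandem, 5 bases apart, at -90 and -79. Over all 35116 promoters in the table, 45.0% held a GC box, 34.6% a CCAAT box, 11.5% a TATA box and 38.6% at least 1 receptor hexamer, while 31 (0.0883%) held such a tandem pair. The table held 49 promoters of 36 of the 51 genes, of which 36.7% had a GC box, 46.9% a CCAAT box, 30.6% a TATA box and 57.1% a hexamer, and CYP26A1 was the only gene of these with the tandem pair. The hexamer search counts overlapping matches of its 4 spellings as 1 stretch of capitals, and a match is a run of letters, not a measured binding site.

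The vitamin D genes moved in different directions. CYP2R1, the main 25-hydroxylase that begins the activation of vitamin D, had log2 signals of 11.18, 11.31, 10.28 and 8.27 from vehicle to 20 μg/mL EEDS and 11.11, 11.03, 10.57 and 8.70 from vehicle to 60 nM helveticoside. Both vehicle and both low-dose arrays lay close together, and both top-dose arrays lay far below them. There CYP2R1 was 7.49-fold lower with EEDS (log2 -2.90) and 5.34-fold lower with helveticoside (log2 -2.42). Its mean slope was -0.87 ± 0.19 (SE) per step, with an adjusted p of 0.0235 (limma, both series), and neither series passed alone (adjusted p = 0.0681 and 0.131). The mean slope missed the threshold without the 20 μg/mL, the 3.75 nM or the 60 nM array (highest adjusted p = 0.145).

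CYP27B1, the 1α-hydroxylase that completes the activation, had log2 signals of 5.45, 5.98, 6.54 and 7.51 across the EEDS doses and 4.89, 5.83, 5.56 and 6.54 across the helveticoside doses. It was the only P450 gene that rose at every step with EEDS and passed the test there, although it was dim: of the helveticoside arrays only that at 60 nM was well above background. It was 4.17-fold higher at 20 μg/mL EEDS, and at least 1.98-fold higher at 60 nM helveticoside, where the vehicle gives only a bound. The limma slopes were 0.67 ± 0.13 (SE) with EEDS (adjusted p = 0.0306), 0.47 ± 0.13 with helveticoside (adjusted p = 0.0786) and 0.57 ± 0.09 for the mean (adjusted p = 0.00996). The EEDS call held in 8 of 13 alternative settings and 3 of 8 fits that left out 1 array, and not with dim values raised to a common floor (slope 0.52, adjusted p = 0.051). The mean slope passed in all 12 alternative settings, though at 0.27 with the signal as scanned or normexp and 0.35 in the authors' table or with the floor, and missed the threshold without the 20 μg/mL, the helveticoside vehicle or the 60 nM array (highest adjusted p = 0.0817).

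CYP24A1, the 24-hydroxylase that breaks down active vitamin D, had log2 signals of 13.97, 14.01, 13.64 and 12.67 in the EEDS series and 13.82, 13.77, 13.68 and 12.90 in the helveticoside series. As for CYP2R1, the arrays below the top dose stayed close together and both top-dose arrays were the lowest. The gene was 2.46-fold lower at 20 μg/mL EEDS (log2 -1.30) and 1.89-fold lower at 60 nM helveticoside (log2 -0.92), and its other probe differed by -1.27 and -0.86. The mean slope of -0.36 ± 0.09 (SE) passed in limma (adjusted p = 0.0338), but not with the arrays scaled to their 75th percentile (adjusted p = 0.0691) or with the mean of both probes (adjusted p = 0.0537), and it held in 3 of 8 fits that each left out 1 array: without the EEDS vehicle, 5 μg/mL or 15 nM array.

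VDR, the receptor that active vitamin D binds, is no P450 gene and is given here because it belongs to the list of regulators. Its log2 signals were 7.47, 8.34, 8.83 and 9.08 in the EEDS series and 7.16, 8.20, 8.56 and 9.04 in the helveticoside series, a rise at every step. It was 3.05-fold and 3.68-fold higher at the top doses, and its slopes were 0.53 ± 0.10 (SE) with EEDS and 0.60 ± 0.10 with helveticoside (limma, adjusted p = 0.0277 and 0.0270). RXRB, which encodes a partner receptor of VDR, also rose by its mean slope (0.28 ± 0.06, limma adjusted p = 0.0212), while RXRA, encoding another partner, had a mean slope of -0.11 ± 0.04 (adjusted p = 0.109).

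**Figure D2:**
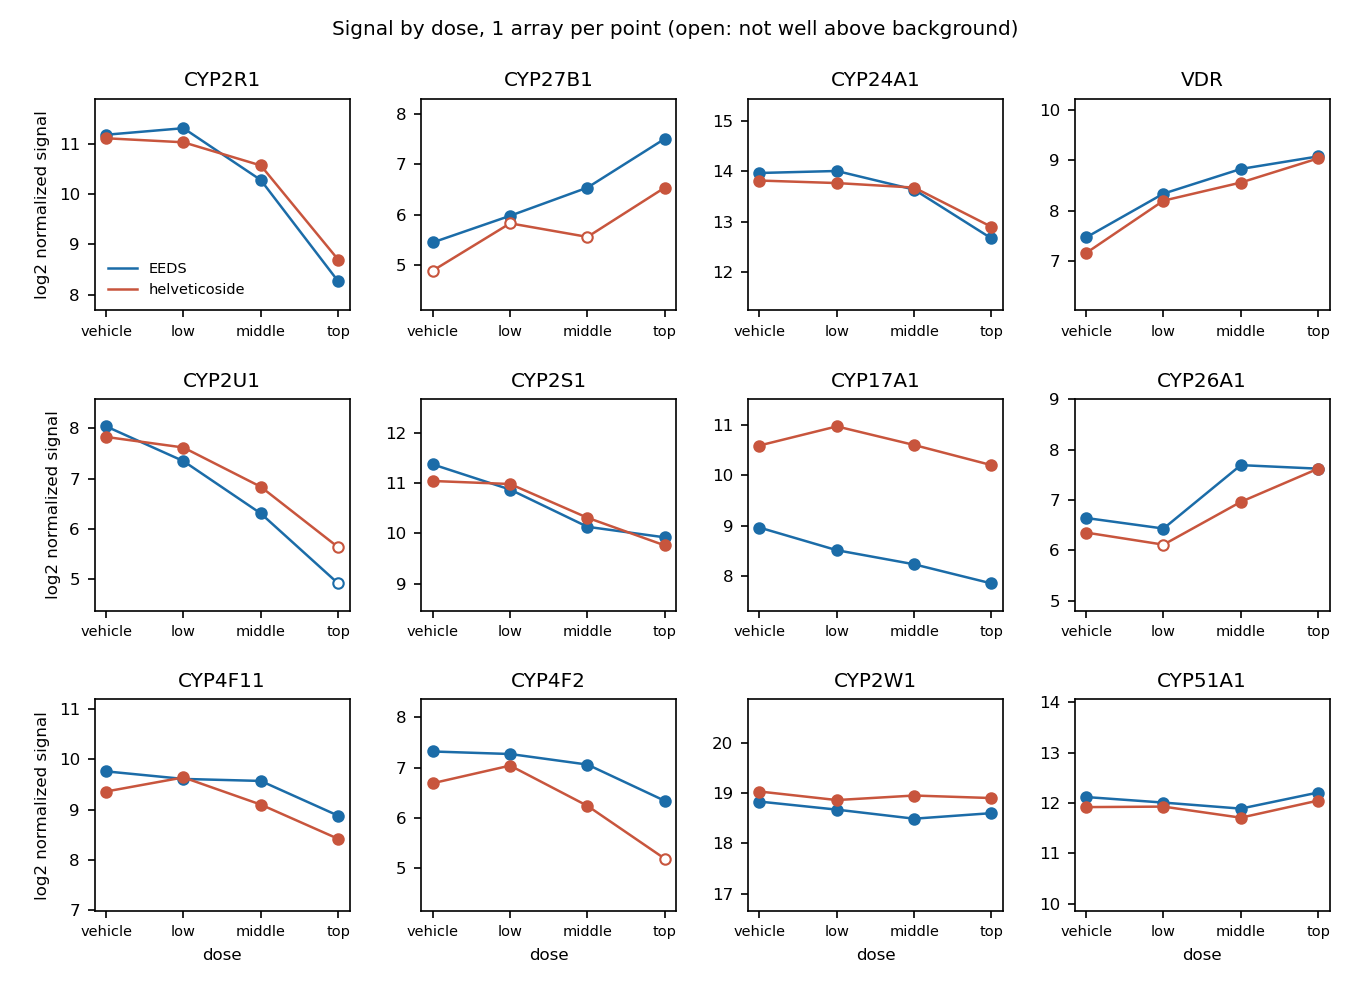
Log2 normalized signal (vertical axes, each spanning at least 4 log2 units) of 11 P450 genes and VDR by dose, 1 array per point, in the EEDS (blue; 1.25, 5 and 20 μg/mL) and helveticoside (red; 3.75, 15 and 60 nM) series; open points were not well above background. CYP2R1 and CYP24A1 are lowest at the top dose of both series, CYP27B1, CYP26A1 and VDR are highest or near their highest there, and CYP2W1 and CYP51A1 are nearly flat.

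Of the 4 retinoid genes, 1 passed. CYP26A1, which breaks down retinoic acid and whose promoter holds the tandem hexamers shown above, had log2 signals of 6.64, 6.43, 7.69 and 7.62 in the EEDS series and 6.35, 6.11, 6.96 and 7.62 in the helveticoside series. The middle and top arrays lay above the vehicle and low-dose arrays in both series. At the top doses it was 1.97-fold higher with EEDS and 2.41-fold with helveticoside. Its mean slope was 0.44 ± 0.12 (SE) in limma (adjusted p = 0.0406), with 0.148 and 0.135 for the series alone. It missed the threshold under 75th percentile scaling (adjusted p = 0.0728) and in 7 of 8 fits that left out 1 array (highest adjusted p = 0.22), all but that without the helveticoside vehicle.

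CYP27C1, which desaturates retinol, had log2 signals of 7.46, 8.73, 8.37 and 7.82 with EEDS and 7.21, 7.74, 7.49 and 7.70 with helveticoside. It was highest at the low dose of both series, 2.41-fold above vehicle at 1.25 μg/mL EEDS. Its other probe, also well above background on all 8 arrays, was highest at the low dose with EEDS (log2 7.16) but at the top dose with helveticoside (7.57, 7.84, 7.91 and 8.10). The mean slope of the brighter probe was 0.10 ± 0.14 (SE; limma adjusted p = 0.701). CYP26B1, a relative of CYP26A1, lay between log2 5.02 and 6.19 and was well above background on 5 arrays, and CYP26C1 on 1, that at 20 μg/mL EEDS (log2 5.40). Retinoic acid receptor genes did not share a direction. RARA rose (mean slope 0.61 ± 0.06 SE, limma adjusted p = 0.00308; its other probe was higher by only 0.10 and 0.40 at the top doses) and RARB fell (-0.82 ± 0.16, adjusted p = 0.0171), with RARG between them (0.26 ± 0.11, adjusted p = 0.136).

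Among the fatty acid and eicosanoid enzymes, 4 of 14 fell by the mean slope and 0 rose, where 15.6% of all genes fell and 14.5% rose, and of the 4 CYP4V2 rests on 1 detected value. At an unadjusted p under 0.05 (limma) only CYP4A22 had a mean slope above 0, and it was well above background on no array. With helveticoside alone CYP4A11 and CYP4B1 had slopes above 0 at that p. CYP4A11 was well above background on all 4 helveticoside arrays and CYP4B1 on no array. CYP2U1, a hydroxylase of long-chain fatty acids, had log2 signals of 8.04, 7.35, 6.31 and 4.92 across EEDS doses and 7.83, 7.62, 6.84 and 5.64 across helveticoside doses. It was lower at every step in both series and not well above background at either top dose. The observed values were 8.65-fold lower at 20 μg/mL EEDS and 4.56-fold lower at 60 nM helveticoside, and these sizes depend on how background is handled. At 60 nM it was not past 2-fold with the signal as scanned, with normexp or in the authors' table (log2 -0.94, -0.96 and -0.83). At 20 μg/mL EEDS it stayed over 2-fold lower in these settings. The limma slopes were -1.04 ± 0.13 (SE) with EEDS (adjusted p = 0.0145) and -0.73 ± 0.13 with helveticoside (adjusted p = 0.0295), and of the fits that left out 1 array the first held in 6 of 8 and the second in 2 of 8. The mean slope of -0.89 ± 0.09 (adjusted p = 0.00376) passed in all 12 alternative settings and in each of the 8 fits that left out 1 array (highest adjusted p = 0.0397). Its size was -0.43 with the signal as scanned or normexp, -0.60 in the authors' table and -0.68 with the common floor.

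CYP4F11, a hydroxylase of fatty acids and of vitamin K, had log2 signals of 9.76, 9.61, 9.57 and 8.88 with EEDS and 9.36, 9.64, 9.10 and 8.42 with helveticoside. CYP4F2, which acts on leukotriene B4 and on vitamins E and K, had 7.32, 7.27, 7.06 and 6.34 with EEDS and 6.69, 7.04, 6.24 and 5.19 with helveticoside. Both genes were lowest at the top dose of each series. CYP4F11 was 1.83-fold and 1.91-fold lower there, and CYP4F2 was 1.97-fold lower with EEDS and at least 2.33-fold lower with helveticoside, where its probe was not well above background. The other probes disagreed with these sizes. That of CYP4F11, well above background on 6 arrays, differed by -0.79 with EEDS and -3.19 with helveticoside. That of CYP4F2, well above background on 1 array, differed by 0.02 with EEDS and went up with helveticoside, from log2 5.25 to 6.45. Their mean slopes passed narrowly in limma, at -0.30 ± 0.09 (SE; adjusted p = 0.0496) and -0.42 ± 0.12 (adjusted p = 0.0440), and each missed the threshold in 7 of 8 fits that left out 1 array, all but that without the helveticoside vehicle. With the mean of all probes both missed it as well (adjusted p = 0.0554 and 0.493).

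CYP4F12 had log2 signals of 8.38, 8.38, 8.37 and 7.86 with EEDS and 7.70, 7.85, 7.74 and 6.76 with helveticoside, and CYP4F8, a prostaglandin hydroxylase, had 9.66, 9.52, 9.41 and 8.76 and then 10.17, 10.40, 10.27 and 9.79. Both were also lowest at the top doses, but their mean slopes missed the threshold (-0.23 ± 0.09 SE and -0.20 ± 0.07, limma adjusted p = 0.131 and 0.0772). CYP4F3, which inactivates leukotriene B4, differed by 0.06 at 20 μg/mL EEDS, while at 60 nM helveticoside it was not well above background and at least 2.76-fold lower than vehicle. The CYP4F genes are close relatives, and how far a probe of 1 gene also binds transcripts of another was not tested. CYP4V2, a fatty acid hydroxylase known for its part in retinal dystrophy, had log2 signals of 5.38, 4.13, 3.53 and 3.35 with EEDS and 3.62, 4.01, 3.41 and 3.50 with helveticoside. Only the EEDS vehicle array was well above background, so the fall with EEDS (slope -0.67 ± 0.14 SE, limma adjusted p = 0.0346) rests on 1 detected value, and with dim values raised to a common floor it was 0.00 (adjusted p = 1.0). CYP4X1 likewise had a call on 1 array, the helveticoside vehicle (log2 5.66, and 2.90 to 2.94 on the other 7).

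Of the 6 steroid hormone enzymes, CYP17A1, which makes the precursors of androgens and cortisol, gave the only called trend. It had log2 signals of 8.96, 8.51, 8.23 and 7.85 with EEDS and 10.59, 10.97, 10.60 and 10.20 with helveticoside. The EEDS values fell at every step, while with helveticoside the low-dose array was the highest and the top-dose array the lowest. At the top doses it was 2.15-fold and 1.31-fold lower, and its mean slope was -0.26 ± 0.06 (SE; limma adjusted p = 0.0340). The 2 vehicle arrays differed by 1.63, more than either agent's change, and the mean slope missed the threshold in 6 of 8 fits that left out 1 array, holding without the helveticoside vehicle or the 3.75 nM array. CYP11A1 and CYP21A2 were detected on 7 arrays each, between log2 4.89 and 6.53, and their mean slopes of 0.05 and 0.13 did not pass (limma adjusted p = 0.687 and 0.298). CYP21A2 has a near-identical pseudogene, so its signal is uncertain.

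CYP51A1, the lanosterol demethylase of cholesterol synthesis, was bright and flat, with log2 signals of 12.12, 12.01, 11.89 and 12.21 with EEDS and 11.92, 11.93, 11.71 and 12.05 with helveticoside. Its lowest value in each series was at the middle dose. It differed by 0.08 and 0.13 from vehicle at the top doses, with a mean slope of 0.02 ± 0.05 (SE; limma adjusted p = 0.886). CYP8B1, the sterol 12α-hydroxylase of bile acid synthesis, had a call on 1 array only. It was at log2 5.65 at 20 μg/mL EEDS, at least 2.14-fold above vehicle, and at 3.10 to 3.15 on the other 7 arrays. Its EEDS slope of 0.76 ± 0.27 did not pass (limma adjusted p = 0.114), and it was not over 2-fold in the median signal as scanned.

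None of the 14 enzymes of foreign compounds had a called trend by limma in either series or the mean, and at an unadjusted p under 0.05 only CYP2F1 (EEDS) and CYP2C18 (helveticoside), both without a call on any array, had a slope that differed from 0. CYP2B6, which clears bupropion and efavirenz, had log2 signals of 7.90, 7.69, 7.90 and 7.79 with EEDS and 7.73, 8.23, 8.05 and 7.86 with helveticoside, all between 7.69 and 8.23. Its other probe, well above background on 7 arrays, was less even with helveticoside (6.93, 6.02, 5.72 and 7.14). CYP2A13, an airway enzyme that activates a tobacco nitrosamine, had 5.75, 5.51, 5.50 and 5.55 with EEDS and 6.57, 6.64, 6.75 and 6.73 with helveticoside. Each series of CYP2A13 was flat, and all helveticoside values, vehicle included, lay above all EEDS values. CYP3A7, the form of fetal liver, had 7.11, 8.19, 7.15 and 7.06 with EEDS and 6.77, 7.00, 6.44 and 6.41 with helveticoside, and was highest at the low dose of both series.

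CYP3A5 was likewise highest at the low doses (log2 8.31 at 1.25 μg/mL EEDS, 2.59-fold above vehicle, and 6.79 at 3.75 nM helveticoside). CYP3A4, the main drug-clearing enzyme of the liver, was well above background on 1 EEDS array (log2 5.62, vehicle) and on all 4 helveticoside arrays (7.96, 7.99, 6.23 and 7.36). The 2 vehicle arrays of CYP3A4 differed by more than any dose from its vehicle. CYP2D6 was well above background on 5 arrays with values of 4.55 to 6.44 over all 8, and its mean slope was 0.04 ± 0.21 (limma adjusted p = 0.928). The other CYP2D6 probe, well above background on 4 arrays, differed by 1.26 with EEDS and 1.17 with helveticoside at the top doses. The probe used differed by 0.52 and 0.11 there. At the middle helveticoside dose, where the probe used was counted as lower, the other probe was higher than vehicle (log2 5.36 against 4.65). The CYP3A probes, like those of CYP2A and CYP2D, belong to families of near-identical genes and pseudogenes and can share signal.

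The 3 enzymes without a settled substrate were all well above background on all 8 arrays. CYP2S1, an enzyme of epithelial tissues, had log2 signals of 11.37, 10.87, 10.13 and 9.92 with EEDS and 11.04, 10.98, 10.31 and 9.76 with helveticoside. It was lower at every step in both series, and its other probe was lower by 1.18 and 1.12 at the top doses, where the probe used was 2.74-fold and 2.43-fold lower. The limma slopes were -0.51 ± 0.08 (SE) with EEDS (adjusted p = 0.0200) and -0.45 ± 0.08 with helveticoside (adjusted p = 0.0304). Of the fits that left out 1 array, the EEDS call held in 5 of 8 (highest adjusted p = 0.151) and the helveticoside call in 1 of 8 (highest 0.301). The mean slope of -0.48 ± 0.06 (adjusted p = 0.00467) passed in all 12 alternative settings and in each of the 8 fits that left out 1 array (highest adjusted p = 0.0499).

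CYP2W1, an enzyme of the fetal gut and of some tumours, had log2 signals of 18.83, 18.67, 18.49 and 18.60 with EEDS and 19.03, 18.86, 18.95 and 18.90 with helveticoside. No spot on the arrays was called saturated, and the mean slope of -0.06 ± 0.03 (SE) did not pass (limma adjusted p = 0.190). CYP20A1 had log2 signals of 11.27, 11.24, 11.36 and 10.71 with EEDS and 10.99, 10.91, 11.23 and 10.81 with helveticoside, and a mean slope of -0.09 ± 0.07 (limma adjusted p = 0.403). Its probes disagreed in sign: at the top doses the brighter probe differed by -0.56 and -0.19 and the dimmer by 0.53 and 0.57.

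**Figure D3:**
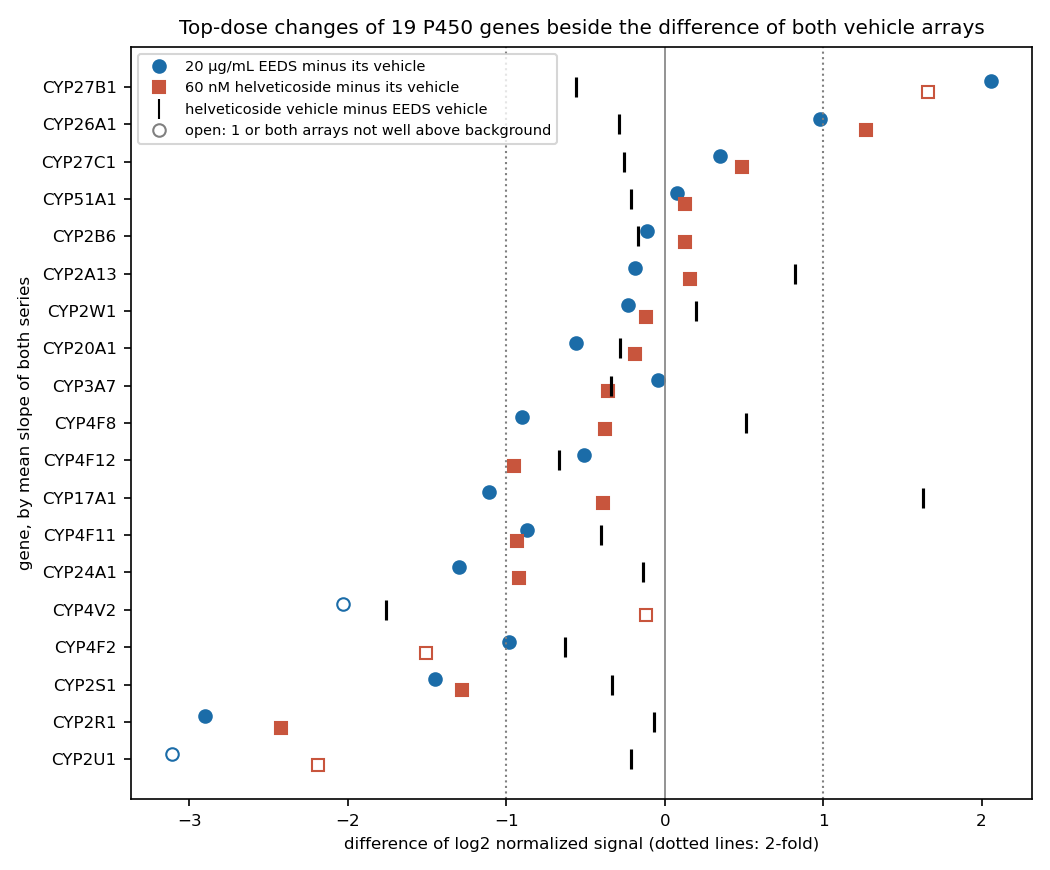
Differences of log2 normalized signal between the top dose and its own vehicle for EEDS (blue circles) and helveticoside (red squares), beside the difference between the 2 vehicle arrays (black bars), for the 19 P450 genes with a called trend or a call on all 8 arrays; open symbols have at least 1 array not well above background. CYP2U1, CYP2R1 and CYP2S1 lie past the 2-fold line to the left with both agents and well beyond their vehicle difference, while for CYP17A1 the bar lies farther from 0 than either symbol.

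No slope was shown to differ between the agents, which does not show that the agents act alike. The limma test of the helveticoside slope minus the EEDS slope called 0 of the 51 P450 genes and 0 of all genes (0.0%), and at an unadjusted p under 0.05 it gave 525 of all genes and 3 of these: CYP2J2, CYP4A11 and CYP4V2. Of the 3, CYP4A11, a fatty acid hydroxylase of liver and kidney, had log2 signals of 5.39, 5.24, 5.00 and 4.86 with EEDS and 6.20, 6.37, 6.71 and 6.77 with helveticoside. The difference of its slopes was 0.39 ± 0.10 (SE; limma adjusted p = 1.0), and its other probe was lower at both top doses, by 0.60 and 0.28.

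Each P450 enzyme holds a heme, and genes that make heme fell with dose. Of 11 genes of heme synthesis and breakdown, 7 fell and 0 rose by the mean slope in limma (at an unadjusted p under 0.05 0 rose as well), against 15.6% and 14.5% of all genes. The fallers were ALAD, UROS, UROD, CPOX, PPOX and FECH, enzymes of heme synthesis, and BLVRA, a biliverdin reductase. UROS had log2 signals of 11.01, 10.08, 9.32 and 8.89 with EEDS and 10.42, 10.15, 8.96 and 7.84 with helveticoside, and its probes differed by -2.11 and -2.08 at 20 μg/mL EEDS and by -2.58 and -2.53 at 60 nM. FECH, ferrochelatase, which puts the iron into heme, had 10.07, 9.60, 9.34 and 8.70 and then 9.66, 9.58, 9.08 and 8.56. Both genes were lower at every step, although FECH's other probe, well above background on 4 arrays, differed by -1.75 and -0.06 at the top doses.

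ALAS1, the rate-limiting first enzyme of that pathway, differed by -0.03 and -0.32 at the top doses (mean slope -0.07 ± 0.05 SE, limma adjusted p = 0.379), and HMOX1, heme oxygenase 1, by -0.22 and 0.06 (0.05 ± 0.14, adjusted p = 0.863). The mean slopes of the 6 called synthesis genes ran from -0.80 to -0.32. Under 75th percentile scaling these 6 were called again and BLVRA was not, while without the 60 nM array 3 of the 11 genes were called (ALAD, FECH and UROS), and without the 20 μg/mL array 3 (FECH, UROD and UROS). ALAD was well above background on 5 arrays.

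A list of 10 genes held carriers of electrons to P450 enzymes and the heme-binding partner proteins PGRMC1 and PGRMC2. Of the 10, 3 fell and 1, PGRMC2, rose by the mean slope in limma, where 15.6% of all genes fell and 14.5% rose. CYB5A and CYB5B, both cytochromes b5, were lower by log2 differences of -1.45 and -1.91 and of -2.49 and -2.48 at the top doses (mean slopes -0.63 ± 0.11 SE and -0.83 ± 0.08, adjusted p = 0.0135 and 0.00300). CYB5R2, a cytochrome b5 reductase, had a mean slope of -0.90 ± 0.14 (limma adjusted p = 0.00798) and PGRMC2, a heme-binding membrane protein, a slope of 0.29 ± 0.05 (adjusted p = 0.0128). Without the EEDS vehicle or without the 60 nM array only CYB5B of the 4 passed, and with the dose itself in place of its step CYB5A and CYB5B did. FDX1 and FDXR, the ferredoxin and its reductase that serve the mitochondrial P450 enzymes, had mean slopes of -0.06 ± 0.07 and 0.05 ± 0.05 (limma adjusted p = 0.572 and 0.533). POR, which serves the microsomal enzymes, was not analysed here.

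Of 22 regulators of P450 genes, 4 fell and 3 rose by the mean slope in limma, where 15.6% of all genes fell and 14.5% rose. Beside VDR, RXRB, RARA and RARB, given above, CEBPA (-0.50 ± 0.06 SE, adjusted p = 0.00501), NR5A2 (-0.40 ± 0.07, adjusted p = 0.0133) and NR1H3 (-0.44 ± 0.10, adjusted p = 0.0227) fell, all factors known from liver genes. NR1I2 and NR1I3, the receptors PXR and CAR that sense foreign compounds and switch on CYP3A and CYP2B genes, were well above background on no array. The 7 regulators kept their direction and call under 75th percentile scaling, where 5 of the 22 rose and 7 fell in all, while without the 60 nM array, and likewise without the 20 μg/mL array, 3 of them remained called (CEBPA, RARA and VDR). With the dose itself in place of its step VDR, RXRB, RARA and CEBPA lost their call, and NR3C1 (rising) and NR1H4, NR2F1 and RXRA (falling) gained one.

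**Figure D4:**
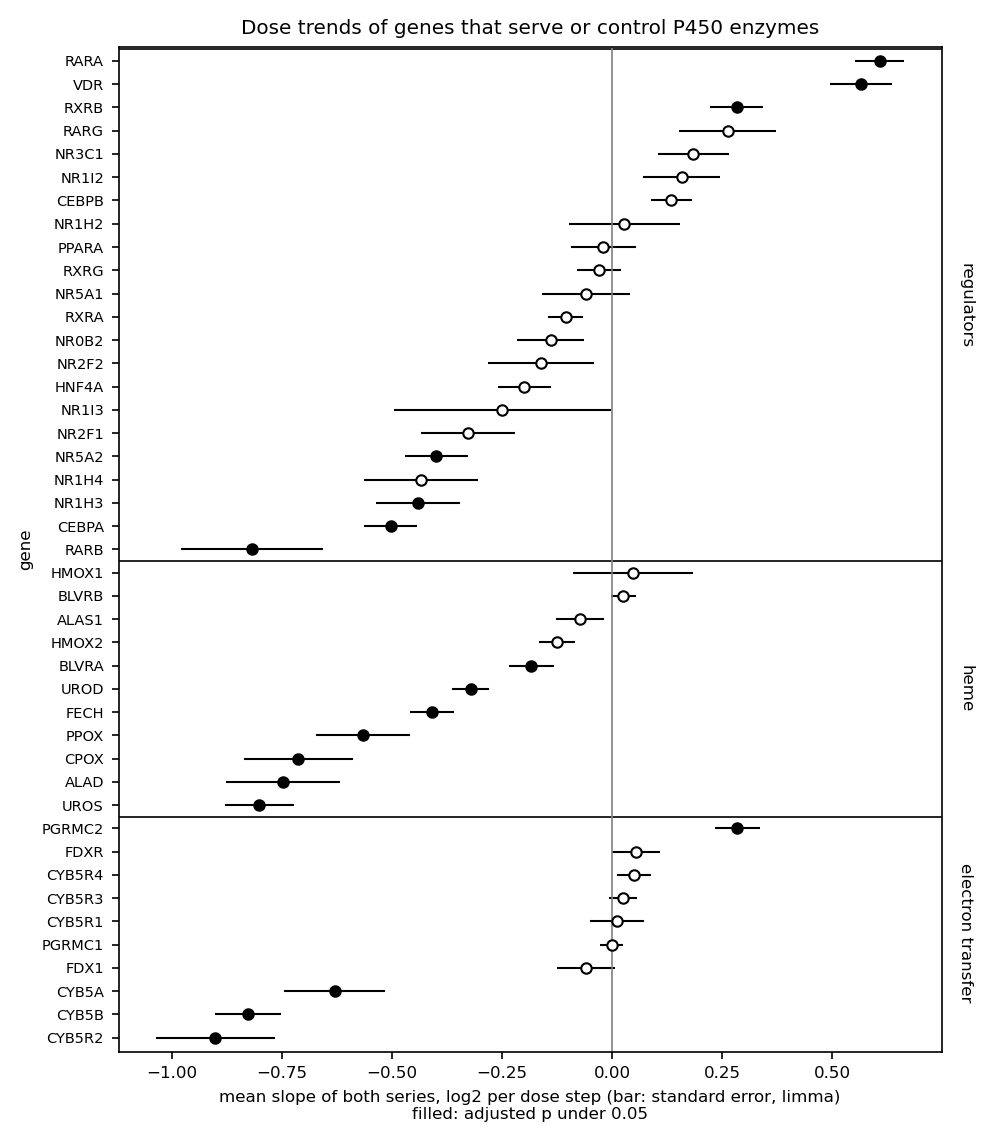
Mean slope of both series in log2 per dose step (horizontal axis, bar: standard error from limma) for the electron-transfer (with the partner proteins PGRMC1 and PGRMC2), heme and regulator genes measured (rows). Filled points passed an adjusted p of 0.05. In the heme group 7 of 11 points are filled and all 7 lie left of 0, while the regulators have filled points on both sides.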

How the data were processed

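Expression was measured on 8 Agilent human whole genome arrays, 1 per dose of each series. For each spot the authors deposited intensity values as the scanner's software wrote them (median, local background, and a processed signal with background subtracted), flags for outlying or saturated spots and for spots well above background, and a table of processed intensity values that follows the median signal minus background (Spearman 1.0 on every array). The study's methods state quantile normalization of elements above 1.4 times the local background. The labels name the dye Cy5, while the files hold green-channel columns, and the version of the scanner software is not given in the sources used here.

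Control spots and outlier spots (246 to 331 an array, none saturated) were dropped, spots of a probe were averaged in the processed signal, and the 34105 probes were quantile-normalized over 8 arrays and put on the log2 scale. Accessions of 24812 probes matched 19056 RefSeq genes (GRCh38.p14), and of 4797 genes with several probes the brightest was used. The limit of 1.4 times background removed 0 genes. Where an array was not well above background, a fold is a bound: the brighter signal over the higher of the dim probe's own and that array's dimmest well-above-background signal. Where the dim probe's own signal was the higher, as for CYP2U1 at both top doses, the bound is the observed fold and no firm minimum. Signal over background and 1 array per group limit the precision.

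The dose slopes came from limma 3.58.1 in R 4.3.3 with statmod 1.5.0 (2-sided, intensity trend and robust variances, 4 residual degrees of freedom), with Benjamini-Hochberg adjustment over 19056 genes and a threshold of 0.05. Arrays about a trend line stand in for replicates there, so curvature counts as error. The slope tests were run on simulated data with known slopes, equal in both series, so the test of a difference between slopes was not checked. Slopes of 1 per step were found in 84% (EEDS), 88% (helveticoside) and 97% (mean) of cases. Slopes of 0.5 were found in 39%, 40% and 66%. The simulated slopes were straight and the noise independent between arrays, so curvature and shifts of a whole array were not checked. The alternatives were other scalings, background corrections, probe choices, filters, dose codings, fold thresholds and sets of arrays.

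Values on every array are given for genes with a call on all 8 arrays, a trend, or the same over-2-fold direction at both top doses. The members and lists were chosen with earlier results of these data known, and CYP2D6, CYP3A4, CYP3A5, CYP4A11, CYP4F3, CYP8B1 and the other genes named outside this rule after their values were seen. Other P450 genes are given by counts and ranges. A few genes of the lists and the values of 1 P450 gene are not reported here.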

Additional observations from a re-analysis of the deposited data

How the results depend on the processing

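Scaling each array to its 75th percentile moved the median of all genes to -0.20, -0.21 and -0.36 (log2) across the EEDS doses and 0.14, -0.12 and -0.18 across the helveticoside doses. The median of the P450 genes at the top doses then was -0.41 with EEDS and -0.35 with helveticoside. It was -0.13 for EEDS against the other vehicle array, and over genes detected on at least 1 array -0.15 (EEDS) and -0.24 (helveticoside). Counts over 2-fold at 20 μg/mL EEDS became 13 with the other vehicle, 13 at a 1.5-fold threshold and 3 at a 4-fold threshold. At 60 nM helveticoside they became 16, 12 and 2, and 2 (CYP2R1 and CYP2S1) with the signal as scanned, with normexp and with the authors' table. The shares of all genes in these settings are not given here. The counts therefore do not show whether P450 genes differ from other genes. By the limit of 1.4 times background 46 genes, not 14, counted as detected on all 8 arrays, and the share of all genes by that limit is not given either.

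EEDS trends numbered 7 under 75th percentile scaling and in the authors' table, 2 with dim values raised to a common floor, and 0 without the middle dose, without the lowest dose and with only the 4 arrays of the series. Of all genes, 3991 were called under 75th percentile scaling, 4600 in the authors' table and 2638 with the floor. In the settings where 0 P450 genes were called, 0 of all genes were called as well, so these counts do not set the P450 genes apart. Helveticoside trends numbered 1 in the authors' table (1657 of all genes), 5 with the dose itself in place of its step (784 of all genes), and 0 without the middle dose, without the lowest dose and with only its 4 arrays (0 of all genes each time). Mean trends numbered 3 without the middle and 3 without the lowest dose (CYP27B1, CYP2S1 and CYP2U1 each time), where 2224 and 2889 of all genes were called. Leaving out 1 array at a time, chosen after seeing the data like the floor, gave 0 to 5 EEDS trends (0 without the vehicle or the 20 μg/mL array), 0 to 2 helveticoside trends (0 without any 1 of that series' arrays or the 1.25 or 5 μg/mL array) and 2 to 8 mean trends (2, CYP2S1 and CYP2U1, without the 60 nM array). Of all genes, 0 had an EEDS trend without the EEDS vehicle or the 20 μg/mL array. With helveticoside, 0 of all genes were called without that series' middle or top array. Without its vehicle, its low-dose array or the 1.25 or 5 μg/mL array, 466 to 954 of all genes were called. Mean trends of all genes numbered 1325 without the 60 nM array and 4163 without the helveticoside vehicle, which gave the 8 P450 trends. These counts do not set the P450 genes apart. Of the single genes' trend values 126 lost a call, 25 gained one and 1024 kept their side of the threshold, and of their top-dose differences 14, 8 and 205, with no call reversed. The causes were not tested. No paired analysis was possible because each group has 1 array.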

Other observations

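Thromboxane synthase (TBXAS1) and prostacyclin synthase (PTGIS) are P450 enzymes whose symbols fall outside the naming rule. TBXAS1 had log2 signals of 9.46, 9.18, 8.32 and 8.14 from vehicle to 20 μg/mL EEDS and 9.80, 10.70, 10.39 and 8.98 from vehicle to 60 nM helveticoside. It was lowest at the top dose of each series and 2.50-fold lower than vehicle with EEDS, but its mean slope of -0.38 ± 0.16 (SE) did not pass (limma adjusted p = 0.145). PTGIS was well above background on no array.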
